A study of Pleurodeles waltl with 9 samples.

Results

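Dorsal iris tissue of the Iberian ribbed newt, Pleurodeles waltl, was compared between eyes at 4 days post-lentectomy (dpl), the surgical removal of the lens, and intact eyes that kept their lens. The comparison is described over the transcripts whose value, averaged over 3 libraries from 4 dpl and 2 libraries from intact irises, was at least 20. This minimum kept 43682 of the 295141 transcripts in the deposited table. All animals were 13 months old, and each library held polyadenylated RNA pooled from the dorsal irises of 4 animals. The series also holds 3 libraries from 1 dpl, which entered the statistical model, and intact replicate 3. The study left out that library for its alignment rate, so it was kept out of the test and is given beside the results as a check. The labels give no genotype, sex or batch.

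Newts rebuild a whole lens from the pigment epithelium of the dorsal iris. After the lens is taken out, the pigmented cells of the upper iris margin lose their pigment, enter the cell cycle and form a vesicle whose cells become lens. In the first days the eye also responds to the wound, with inflammation, arriving macrophages and remodelling of the extracellular matrix. The comparison at 4 dpl asks how far the RNA content of the dorsal iris had moved from its intact state before a lens vesicle is present. In bulk tissue, fewer cells of a type and less RNA per cell cannot be told apart.

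The values are a signal per transcript, estimated with Salmon and normalized for transcript length, so levels can be set side by side between transcripts. They are named average TPM, a unit scaled to a fixed library total, but the columns of the 5 libraries summed to between 19335200 and 21554600. They are therefore called values here and were used as deposited. The read depth behind a value is not known from the table, and the study states only a minimum per sample. The 43682 transcripts held 97.6% to 98.6% of the total of each of the 5 libraries, and 89.1% of that of intact replicate 3. Of these transcripts, 22264 carried an ID from the genome annotation and 21418 carried one that StringTie had assigned when it assembled the reads. IDs are not paired with gene names in the table, and a reference list of 59059 genes gave 0 matches. Transcripts are therefore described by abundance, rank and kind of ID, and the label of dorsal iris was not checked against marker genes.

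At 4 dpl, 2061 of the 43682 transcripts were higher and 958 were lower than in intact tissue, with an adjusted p below 0.05 (limma on log2(value + 1), 8 libraries in one model, Benjamini-Hochberg adjustment over 154825 transcripts). Together these 3019 transcripts were 6.91% of the 43682, while 2.02% of all 154825 tested transcripts were called. In the separate directions, 4.72% were called higher and 2.19% lower, against 1.37% and 0.651% of all tested transcripts. Differences in both directions were common over the 43682 transcripts, most of which were not called. A log2 fold change of at least 1 in size was found for 9311 that were higher and 8914 that were lower. Of these, 1926 and 918 were called. The median size of the log2 fold change was 0.82 over the 43682 transcripts, where the median SD of log2(value + 1) was 0.50 between the libraries from 4 dpl and 0.36 between the intact libraries. With its sign, the median log2 fold change was 0.04 over the 43682 transcripts and -0.12 over all tested ones. The minimum of 20 counts 3 libraries from 4 dpl and 2 intact libraries. Set on the mean of the group means instead, it gave a median of 0.013. Set on either group's mean, it gave 0.0003. After rescaling every library to a common total, the median over the 43682 changed sign, to -0.03. In all, 12644 of the 43682 had an unadjusted p under 0.05. Values of the 3 libraries from 4 dpl lay above both intact libraries for 11392 transcripts (26.1%) and below both for 10001 (22.9%). Over all tested transcripts such separation was seen for 10.5% and 17.4%. All 3019 called transcripts were separated in this way. The number called rested on the few libraries. It was 558 without intact replicate 2, 975 without intact replicate 1, and 1522, 1484 and 1850 without 4 dpl replicates 1, 2 and 3. Where 1 intact library was left, it was assumed to vary like the libraries of the other groups. When the 43682 transcripts alone were fitted, 6027 were called, and without an intensity trend in the variance 241 were called. In each of these fits more transcripts were called higher than lower. With intact replicate 3 in the model, 2367 were higher and 990 lower, and 2437 of the 3357 were among the 3019 called without it.

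**Figure D1:**
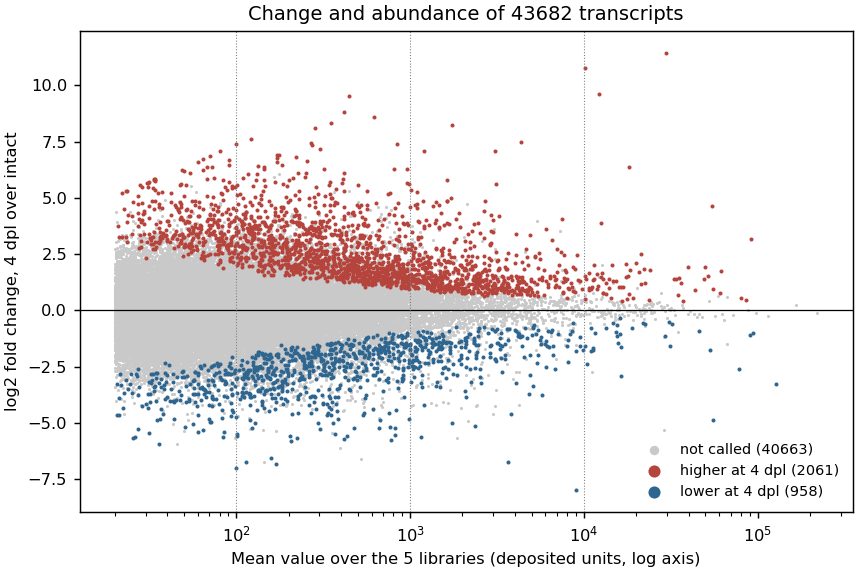
Log2 fold change of 4 dpl over intact (vertical axis) against the mean value over the 5 libraries (horizontal log axis, deposited units) for 43682 transcripts, 1 point each. Red points are the 2061 transcripts called higher at 4 dpl, blue points the 958 called lower and grey points those not called. Dotted lines mark 100, 1000 and 10000. Called changes reach close to 0 only on the right, where values are high.

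The called changes were large, but they were selected by the same libraries, which favours large changes. Over all 43682 transcripts the median size of the log2 fold change was 0.82. Transcripts called higher had a median log2 fold change of 2.31, and the middle 50% of them lay between 1.52 and 3.40. Transcripts called lower had a median of -2.49, with the middle 50% between -3.30 and -1.74. At 4 dpl the transcripts called higher had a median mean value of 669, against 122 in intact irises. Those called lower had a median of 121 at 4 dpl, against 699 in intact irises. A change under 1 on the log2 scale was called for 135 of the 2061 and for 40 of the 958. A change of 5 or more was seen for 128 that rose and 37 that fell. The smallest called changes were 0.40 among rises and 0.36 among falls, and the largest were 11.43 and 7.98 in size.

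Nearly all of the 43682 transcripts had values above 0 on both sides. In all 5 libraries, 43544 of them (99.7%) were listed above 0. Only 26 were at 0 in both intact libraries and above 0 in all 3 libraries from 4 dpl, of which 24 were called higher. Their median mean value at 4 dpl was 56.3 and the greatest was 740. In intact replicate 3, 7 of the 26 were also at 0. In the other direction, 1 transcript was at 0 in all 3 libraries from 4 dpl and above 0 in both intact libraries, where it averaged 63.6. The minimum of 20 averages more libraries from 4 dpl than from intact irises. A transcript at 0 in intact irises can therefore pass it with a lower mean in the other group than one at 0 at 4 dpl. Being at 0 in every intact library is also a condition on fewer libraries. The counts of 26 and 1 are therefore not compared. The minimum of 20 itself favours values above 0, and any value above 0 counts as listed. A called rise from a mean of 17.0 in intact irises to 49742 at 4 dpl counts as listed in both groups. So does a called fall from 248 to 0.86. These counts therefore do not separate a change of level from near absence in a group.

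Transcripts were divided by their mean over the 5 libraries into 4 classes of abundance. In the class from 20 to under 100 there were 22246 transcripts, of which 329 were called higher and 175 lower, or 2.27% in all. The class from 100 to under 1000 held 18518, of which 1099 were higher and 521 lower (8.75%). From 1000 to under 10000 there were 2673, of which 564 were higher and 231 lower (29.7%). The 245 transcripts at 10000 and above had 69 higher and 31 lower (40.8%). The share called thus rose with abundance in both directions, and rises were between 65.3% and 70.9% of the calls in every class. The shares themselves depended on the libraries and the model. From the lowest class to the highest they were 0.207%, 1.39%, 7.93% and 17.6% without intact replicate 2, and rises were then 76.7% to 89.1% of the calls. Without intact replicate 1 they were 0.562%, 2.59%, 11.7% and 23.3%. Leaving out a library from 4 dpl gave 0.688% to 0.881% in the lowest class and 3.69% to 4.94% in the next. Without the intensity trend the shares were 0.396%, 0.616%, 1.20% and 2.86%, and when the 43682 transcripts alone were fitted they were 5.93%, 18.8%, 42.0% and 44.5%. The order of the classes was the same in each of these fits.

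Large changes were more frequent in the lower classes. A log2 fold change of at least 1 in either direction, called or not, was found for 43.9% of the transcripts from 20 to under 100, then for 40.2%, 35.2% and 29.4% in the higher classes. Among called rises the median log2 fold change was 3.55 in the lowest class, 2.38 and 1.42 in the middle classes and 1.37 at 10000 and above. Among called falls it was -3.42, -2.51, -1.61 and -1.11 in the same order. These medians cover called transcripts alone, and where libraries spread more, a change has to be larger to be called. The spread between libraries fell along the same classes. The median SD of log2(value + 1) was 0.70, 0.36, 0.21 and 0.16 between the libraries from 4 dpl, and 0.51, 0.26, 0.12 and 0.10 between the intact libraries. What this spread contributed to the share of calls and to the sizes of the changes was not tested. With a pseudocount of 20 in place of 1, calls in the lowest class were 307 higher and 329 lower, so that rises no longer outnumbered falls there. With intact replicate 3 in the model they were 313 and 274.

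**Figure D2:**
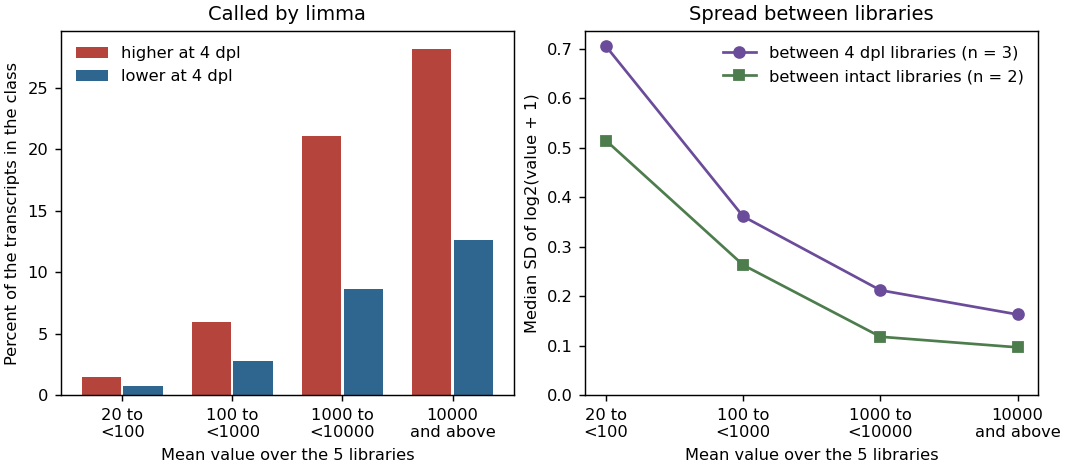
Left, percent of the transcripts in each class of mean value that limma called higher (red) or lower (blue) at 4 dpl. Right, median SD of log2(value + 1) between the 3 libraries from 4 dpl (purple circles) and between the 2 intact libraries (green squares) in the same classes. Calls rise to 28.2% higher and 12.7% lower in the highest class, while the SD falls to 0.16 and 0.10.

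The kind of ID went with the direction of the calls. Of the 22264 transcripts with an annotation ID, 1231 were higher and 408 lower, so that 75.1% of the called were rises. Of the 21418 with a StringTie ID, 830 were higher and 550 lower, and 60.1% of the called were rises. Between 1000 and 10000, rises were 456 of 593 calls with an annotation ID and 108 of 202 with a StringTie ID. From 20 to under 100 they were 91 of 145 and 238 of 359, so the difference was not seen among transcripts with low values. It was not tested, because the transcripts of a gene are not independent. The StringTie IDs belong to 11365 assembled genes, of which 4579 had 2 or more of the transcripts described. A called transcript was found in 1201 genes, and 141 genes had 2 or more. In 75 of these all called transcripts were higher, in 51 all were lower, and in 15 they moved in both directions.

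The called transcripts held a large part of the RNA. Those called higher made up 24.5%, 24.8% and 23.2% of the total value in 4 dpl replicates 1, 2 and 3, against 9.04% and 9.01% in intact replicates 1 and 2. Those called lower made up 4.70%, 4.38% and 5.10% at 4 dpl, against 15.5% and 16.1% in intact irises. These shares describe the transcripts that the same libraries selected, so no test is given. In intact replicate 3, which took no part in selecting them, the transcripts called higher held 9.75%, close to the other intact libraries. Those called lower held 9.90% there, between the values at 4 dpl and in the other intact libraries. Transcripts that were not called held 69.1% to 69.5% of the total at 4 dpl, and 73.2% and 72.5% in intact replicates 1 and 2.

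**Figure D3:**
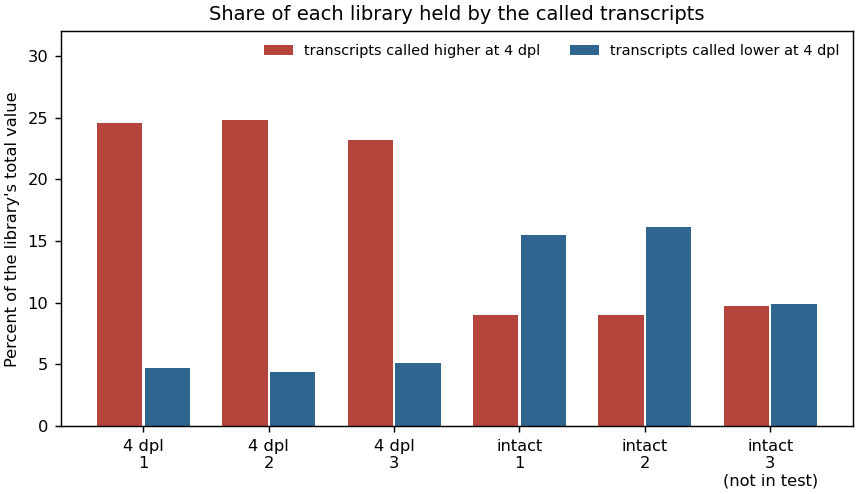
Percent of each library's total value (vertical axis) held by the transcripts called higher (red) and called lower (blue) at 4 dpl, in 3 libraries from 4 dpl and 3 from intact irises. Intact replicate 3 took no part in the test. Its red bar (9.75%) is level with those of the other intact libraries, and its blue bar (9.90%) lies between the groups.

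The place of intact replicate 3 differed between rises and falls and with abundance. For 88.0% of the transcripts called higher, its log2 value was nearer to the intact mean than to the 4 dpl mean, and for 58 of the 2061 it reached the range of the libraries from 4 dpl. Among transcripts called lower it was nearer to the intact mean for 60.2%, and for 136 of the 958 it reached the range from 4 dpl. From 20 to under 100 the order was the other way, with intact replicate 3 on the intact side for 62.9% of rises and 76.0% of falls. It was there for 90.3% of rises and 58.7% of falls from 100 to under 1000, and for 97.2% and 52.4% from 1000 to under 10000. At 10000 and above, it was on the intact side for 66 of 69 rises and for 17 of 31 falls. Called or not, transcripts from 20 to under 100 held 8.24% of its total, against 5.78% and 5.66% in intact replicates 1 and 2. Those from 100 to under 1000 held 21.6%, against 28.7% and 27.4%. Those from 1000 to under 10000 held 26.7%, against 31.8% and 31.3%, and those at 10000 and above 32.5%, against 31.6% and 33.3%. Of the intact libraries, the calls used replicates 1 and 2 alone. The places were read from values as deposited, without rescaling. The column of intact replicate 3 summed to 17541400, against 19335200 and 19534900 in intact replicates 1 and 2. The transcripts described held 89.1% of its total, against 97.8% and 97.6%. A lower scale would move its values toward intact for rises and toward 4 dpl for falls. What the shares by class, the choice of intact libraries or the scale contributed to these places was not tested.

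Most of the abundant transcripts stayed abundant. Of the 100 transcripts with the highest mean value at 4 dpl, 75 were also among the 100 highest in intact irises. The lists shared 33 of 50, 10 of 20 and 4 of 10, and at the longer lengths 357 of 500, 720 of 1000 and 3526 of 5000. Among single libraries, pairs from 4 dpl shared 86, 86 and 93 of their 100 highest, and the pair of intact libraries shared 92. The 6 pairs of a library from 4 dpl and an intact library shared between 67 and 75, so the ranges within and between groups did not overlap. For the 1000 highest, pairs shared 858 to 900 within 4 dpl and 907 within intact, compared with 680 to 707 between the groups. Intact replicate 3 shared 72 to 75 of its 100 highest with the libraries from 4 dpl, and 82 and 85 with the other intact libraries.

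**Figure D4:**
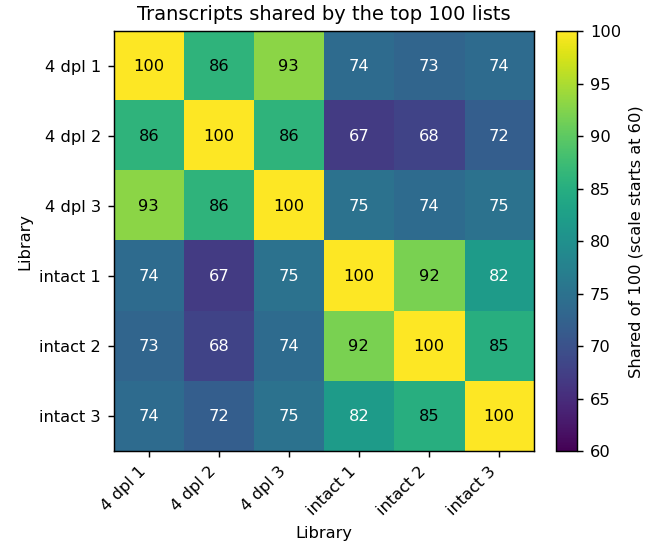
Number of transcripts shared by the lists of the 100 highest transcripts of each pair of libraries, with 4 dpl above and left of intact. The colour scale starts at 60. Pairs within 4 dpl share 86 to 93, intact replicates 1 and 2 share 92, and pairs between the groups, leaving out intact replicate 3, share 67 to 75.

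The 25 transcripts that were among the 100 highest only at 4 dpl had a median intact rank of 188, and 23 of them were called higher. All 25 had higher values in each library from 4 dpl than in both intact libraries. The 25 that were among the 100 highest only in intact irises had a median rank of 144 at 4 dpl, and 14 of them were called lower. Values of 21 of these 25 did not overlap between the groups. Both sets were picked by their ranks in the same libraries, which favours separation and calls, so these counts are descriptions. Of all 245 transcripts at 10000 and above, 43.3% lay above both intact libraries and 23.7% below both. In that class 28.2% were called higher and 12.7% lower. At 1 dpl, 11 of the 25 that entered were already among the 100 highest, and 11 of the 25 that left were still among them. By these medians, a typical transcript that entered or left moved across a limited number of ranks, but some moved much further. A StringTie transcript at rank 27 at 4 dpl had been at rank 40585 of 43682 in intact irises, and an annotated transcript at rank 83 in intact irises was at rank 19471 at 4 dpl. This annotated transcript had 19.7, 226.1 and 97.3 at 4 dpl, against 33174 and 11529 in intact irises and 179.6 in intact replicate 3. Among the 75 that stayed in both lists, 11 were called higher and 8 lower.

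A slightly lower share of the RNA was held by the 10 highest transcripts at 4 dpl. The mean difference was -2.15 percentage points, and for the 100 highest it was no larger in size. The 10 highest transcripts of a library held 5.80%, 5.998% and 5.71% of its total in 4 dpl replicates 1, 2 and 3, against 7.53% and 8.43% in intact replicates 1 and 2. For the 100 highest the shares were 22.1%, 21.6% and 21.8% at 4 dpl and 23.1% and 24.5% in intact irises. The mean was 21.9% ± 0.28 (SD, n = 3) at 4 dpl and 23.8% ± 0.99 (SD, n = 2) in intact irises, a difference of -1.93 percentage points (exact two-sided permutation test, p = 0.2). With 3 against 2 libraries, 0.2 is the smallest p this test can give, so the design cannot reach 0.05. The 1000 highest held 50.8% ± 0.49 (SD, n = 3) at 4 dpl and 51.3% ± 1.11 (SD, n = 2) in intact irises, and these shares overlapped between the groups.

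The greatest gains of mean value among called transcripts were those of mRNA20944 and mRNA109311. mRNA20944 had values of 143121, 154718 and 127590 at 4 dpl, against 15890 and 15450 in intact irises. It went up to rank 3 at 4 dpl, against rank 136 in intact irises, and made up 0.690% of the total at 4 dpl. The 3 values at 4 dpl lay far above both intact values, with a mean 9.05-fold higher and a log2 fold change of 3.17 (standard error 0.09, limma adjusted p = 1.9e-06). In intact replicate 3 it had a value of 12739, and at 1 dpl 53913, 65169 and 59064.

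mRNA109311 had values of 127952, 72106 and 66963 at 4 dpl, against 3277 and 3615 in intact irises. Replicate 1 stood above the other libraries from 4 dpl, and all 3 were above both intact libraries. The mean was 25.8-fold higher at 4 dpl, with a log2 fold change of 4.63 (standard error 0.24, limma adjusted p = 5.5e-05), and the rank was 8 at 4 dpl and 712 in intact irises. Intact replicate 3 had 3710, close to the other intact libraries, and the libraries from 1 dpl lay between, at 22454, 24889 and 29457.

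The greatest losses were those of mRNA164218 and mRNA164253, which ranked 1 and 3 in intact irises. mRNA164218 had values of 29945, 13916 and 51639 at 4 dpl, against 235102 and 307538 in intact irises. It was at rank 49 at 4 dpl and its mean was 8.52-fold lower, a log2 fold change of -3.27 (standard error 0.43, limma adjusted p = 0.0051). mRNA164253 had values of 29260, 16225 and 33191 at 4 dpl, against 130338 and 179540 in intact irises. Its mean was 5.91-fold lower and its rank at 4 dpl was 73, with a log2 fold change of -2.61 (standard error 0.27, limma adjusted p = 0.0016). For both transcripts the groups did not overlap.

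Intact replicate 3 did not share these high levels. It had 32750 for mRNA164218 and 22070 for mRNA164253, and both values lie within the range of the libraries from 4 dpl. With it in the model, mRNA164253 was no longer called, with a log2 fold change of -1.68 (limma adjusted p = 0.084). mRNA164218 was not called without intact replicate 1 (limma adjusted p = 0.091) or without intact replicate 2 (0.14), and mRNA164253 was not called without intact replicate 2 (0.071). At 1 dpl both were still high, at 256767, 185539 and 265127 for mRNA164218 and at 127725, 109042 and 140601 for mRNA164253. Whether these losses belong to the state of the iris at 4 dpl or to a difference between the intact pools or libraries was not tested. The study left out intact replicate 3 for its alignment rate.

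**Figure D5:**
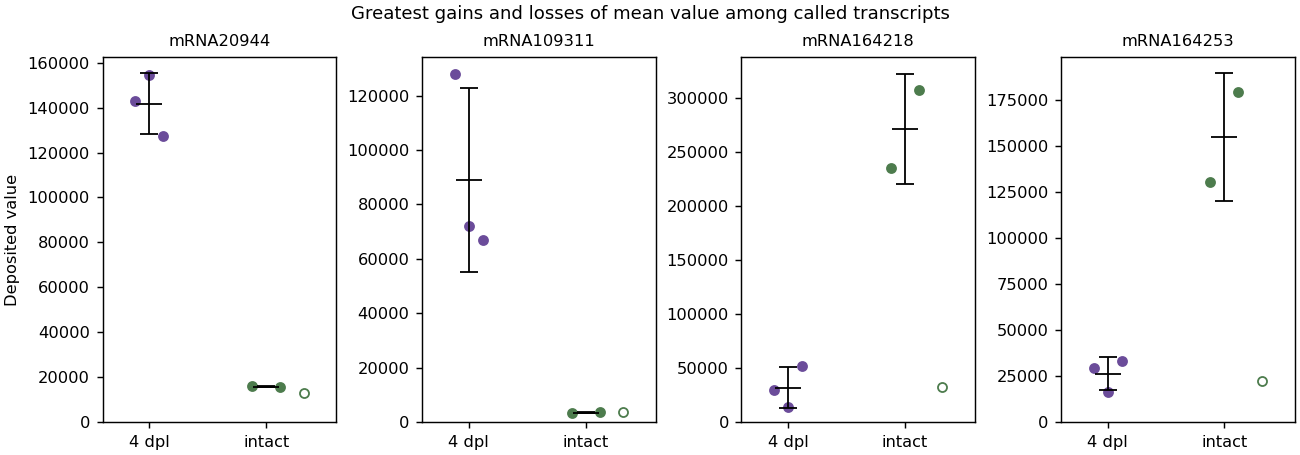
Deposited values of the transcripts with the 2 greatest gains and the 2 greatest losses of mean value among those called, in libraries from 4 dpl (purple, n = 3) and intact irises (green, n = 2). Black bars give the mean and SD, and the open green circle is intact replicate 3, which is not in the mean. The open circle sits with the intact libraries for both gains and at the level of 4 dpl for both losses.

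Further abundant transcripts gained. The third greatest gain was at rank 10 at 4 dpl, with 97704, 90377 and 68756 at 4 dpl and 28528 and 22036 in intact irises, a log2 fold change of 1.76 (standard error 0.17). The fourth had 70951, 76561 and 62834 at 4 dpl and 17368 and 19325 in intact irises, a log2 fold change of 1.93 (standard error 0.08). The StringTie transcript that came to rank 27 had 54040, 55548 and 39638 at 4 dpl, against 19.5 and 14.4 in intact irises. It had 122.6 in intact replicate 3 and a mean of 1761 at 1 dpl. The groups were apart for each of these.

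Among the losses, the third greatest had 2696, 4882 and 6208 at 4 dpl and 94993 and 167372 in intact irises, a log2 fold change of -4.86 (standard error 0.37). Its value in intact replicate 3 was 12195, above the libraries from 4 dpl but well under the other intact libraries. In other losses, intact replicate 3 lay at differing distances from 4 dpl. An annotated transcript at rank 5 in intact irises had 70842, 69806 and 60128 at 4 dpl, against 129342 and 140922 in intact irises and 153969 in intact replicate 3. A StringTie transcript at rank 6 in intact irises had 66775, 54462 and 63722 at 4 dpl, against 132714 and 132132 in intact irises. Its value of 86042 in intact replicate 3 was above all 3 libraries from 4 dpl but nearer to their mean than to that of the other intact libraries. Their log2 fold changes were -1.02 (standard error 0.08) and -1.11 (standard error 0.09). A called loss at rank 18 in intact irises had 33779, 35427 and 33636 at 4 dpl, against 70270 and 57974 in intact irises. Its value of 34837 in intact replicate 3 lay within the range from 4 dpl. Among the 25 that left the 100 highest, called or not, 7 had a value in intact replicate 3 no higher than the highest at 4 dpl. A loss at rank 17 in intact irises was not called, since its values at 4 dpl were 9345, 98.99 and 4831, against 58687 and 72340 in intact irises. Its value in intact replicate 3 was 74.8.

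The transcript at rank 1 at 4 dpl did not pass the test. It had 226297, 221708 and 194872 at 4 dpl and 225896 and 234486 in intact irises, where it ranked 2, and its values overlapped between the groups. The transcript at rank 2 at 4 dpl had 173847, 190316 and 163444 at 4 dpl and 140776 and 161331 in intact irises. Its libraries did not overlap, but its log2 fold change of 0.22 (standard error 0.07) was not called (limma adjusted p = 0.17), and intact replicate 3 had a higher value than any of them, 250227.

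Both great losses carried annotation numbers close to each other, near 164283, the highest number in the table. A span of 50 numbers on each side of them, set after the values were seen, holds 100 IDs, of which 37 were among the 43682 transcripts. Of these, 5 were among the 20 highest at 4 dpl and 12 among the 20 highest in intact irises, while 11 were among the 100 highest at 4 dpl and 13 among the 100 highest in intact irises. The 100 IDs made up 4.12%, 4.44% and 4.60% of the total in 4 dpl replicates 1, 2 and 3, against 6.90% and 8.28% in intact replicates 1 and 2. Intact replicate 3 had 6.63% and the libraries from 1 dpl had 6.64% to 7.27%. Within the span, 7 of the 37 transcripts were called lower and 2 higher, where 6.91% of all 43682 and 40.8% of those at 10000 and above were called. The 7 include both transcripts around which the span was set, and the third greatest loss described above. The loss at rank 17 in intact irises, which was not called, also carried a number in the span. For each of these losses intact replicate 3 lay far under intact replicates 1 and 2. On their own, mRNA164218 and mRNA164253 made up 1.40% and 0.797% of the total in intact irises, against 0.157% and 0.128% at 4 dpl. Nothing is therefore read from the counts or the shares of the span. What these IDs share apart from their numbers is not known from the table.

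At 1 dpl, the transcripts called at 4 dpl were mostly part of the way along. On the log2 scale, the 1 dpl mean was placed on a line that ran from 0 at intact to 1 at 4 dpl. Its median place was 0.73 for the transcripts called higher and 0.58 for those called lower. The 1 dpl mean had passed the midpoint for 1415 of the 2061 rises and for 549 of the 958 falls, and had gone beyond the 4 dpl mean for 528 and 102. It lay on the other side of the intact mean for 141 rises and 34 falls. The same intact libraries stand at the base of both distances. The transcripts were also selected by their distance between intact and 4 dpl, which favours a place short of 4 dpl. These are therefore descriptions and not tests.

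The minimum of 20 cut through a part of the table with few calls. The 5 transcripts just inside it had means of 20.002 to 20.006 over the 5 libraries and the 5 just outside had means of 19.99 to 19.999, and none of these 10 was called. From 20 to under 25 there were 3207 transcripts, of which 11 were called higher and 12 lower, and from 15 to under 20 there were 4127, of which 18 were higher and 16 lower.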

How the data were processed

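RNA was sequenced from dorsal irises of P. waltl. According to the study's methods, the authors trimmed reads with Trim Galore, aligned them with STAR and assembled transcripts with StringTie. Spliced sequences were taken out with gffread, and Salmon, run against them and a genomic decoy, gave expression with Gibbs sampling and corrections for sequence and GC bias. Neither tool versions nor a build name is given in the sources used here. The authors deposited a normalized signal value per transcript and library, named average TPM, and columns summed to between 17541400 and 22023400. No value above 0 was whole, so no test of counts was run.

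Columns were assigned to libraries by the labels, and 0 columns were left without a sample. Transcripts with a mean of at least 0.5 over 8 libraries (154825) were fitted as log2(value + 1) with limma 3.58.1 in R 4.3.3, with all 3 groups in one model and an intensity trend, and p-values were adjusted by Benjamini-Hochberg over all of them. Fold changes on this scale understate those of low values. P-values measure the spread between pools of 4 animals. Transcripts with a mean of at least 20 over the 5 libraries compared were then read out. Data were handled with pandas 2.3.3 and the R package data.table (version 1.17.8), the permutation test with scipy 1.17.1 and plots with matplotlib 3.10.9.

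Members, classes and tests were chosen with earlier results of these data known. Named transcripts are the 2 greatest gains and 2 greatest losses of mean value among called transcripts whose groups did not overlap; others are given by rank and were chosen after their values were seen. Marker genes listed for 9 cell types or processes of the eye were not analysed, because IDs could not be paired with names. Alternatives concerned the pseudocount, minimum values, the transcripts and libraries fitted, the variance model, library weights, scaling, a replicate block and each library left out. In a test on simulated data with 200 of 154825 transcripts changed by a log2 fold change of 1, 2 or 3 between 4 dpl and intact, 16 were called. Of these, 0 had the wrong direction, and a single call (1) fell on a transcript left as it was. Many changes of this size can therefore be missed where few transcripts change. In the data 3131 of the 154825 were called, and the adjustment is stricter where fewer transcripts change. The share found in the simulation is thus not an estimate of the share found in these libraries.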

Additional observations from a re-analysis of the deposited data

Results flagged for a closer look

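Intact replicate 3, which took no part in the comparison, held 6136 transcripts with a value of at least 20 that were at 0 in all 5 libraries compared. In intact replicate 1, 3 transcripts had a value of at least 20 and were at 0 in the other 4 libraries compared, and in intact replicate 2 there were 2. None of the 6136 is among the 43682 transcripts described.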

How the results depend on the processing

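As reported, 3019 transcripts were called, 2061 higher and 958 lower. Of 27 alternatives, 18 kept each of these numbers within 1.5 times. Several of the 18 read the same fit again at another minimum or size of change, or left out only a library from 1 dpl. They are therefore not independent checks. Leaving out any of the 5 libraries compared took each number outside that range. Fitting the 43682 transcripts alone gave 6027 (3810 higher, 2217 lower), library weights 5654 (3603, 2051), no intensity trend 241 (196, 45) and the replicate block 1674 (1168, 506). With one library left out, the number called ranged from 558 to 3146, higher from 469 to 2121 and lower from 89 to 1025. The first of these fits tested fewer transcripts, and the last ones used fewer libraries. What moved the numbers was not tested in any of them. Over the 43682 transcripts, same-numbered libraries of different groups did not deviate together from their group means (correlations of -0.072 to 0.0048). Deviations of intact replicates 1 and 2 mirror each other by construction, and a batch shared by some transcripts could be missed. Whether the numbers mark a pairing is therefore not decided by these correlations. Over all tested transcripts, the median log2 fold change was 0 after quantile normalization and -0.12 as reported. Rises were then 61.4% of the calls, against 68.3% as reported, 63.6% after rescaling to a common total and 72.2% with median-of-ratios scaling. A minimum of 20 in either group's mean, chosen after the data were seen, gave 3080.

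The overlap of the 100 highest transcripts stayed between 72 and 75 when groups were summarized by the minimum or, at 4 dpl, the median, under both scalings, with intact replicate 3, with sums per StringTie gene and with each library left out. The difference in the share held by the 100 highest was -1.93 percentage points, -2.15 for the 10 highest, -0.50 for the 1000 highest, and -2.63 to -1.23 with one library left out. The named transcripts kept their direction in all 17 alternatives run for each. They were picked for groups that did not overlap, so leaving out a library could not change their direction. Leaving out a library from 1 dpl left their fold changes as they were. mRNA20944 was not called without the intensity trend (limma adjusted p = 0.054), nor were mRNA164218 (0.12) and mRNA164253 (0.12). mRNA109311 was called in every one of them. The study states a minimum read depth per sample but not the depth of each library. The limit that depth sets on low values was not worked out.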
